A study of Mus musculus with 2 samples.

Results

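The 8 genes described here, Dusp4, Dusp6, Spry1, Spry2, Spry4, Spred1, Spred2 and Il17rd, encode feedback inhibitors of the RAS-ERK pathway. They were taken by name from a table of RNA counts of mouse foetal germ cells, with earlier results of these data known. The table held 42422 genes, of which 15252 had enough counts to be tested, and all 8 were among those tested. Every group came from wild-type embryos of a cross of ASMU Swiss mice with Oct4-eGFP mice on a 129svJT2 background, whose reporter makes germ cells fluoresce. Gonads with the mesonephros attached were taken at E12.5 (embryonic day). GFP-positive germ cells were sorted either at once (0 h) or after 24 h or 72 h of organ culture. XX gonads were cultured in the vehicle DMSO alone, and XY gonads in DMSO, in BGJ398 (FGFRi), which blocks FGF receptors, or in PD0325901 (MEKi), which blocks MEK1/2, each inhibitor at 500 nM. This gave 10 groups of 4 libraries, 40 in all. Several gonads were pooled in each sample, and both inhibitors bathed the whole gonad, so that germ cells and somatic cells were exposed alike.

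In the RAS-ERK pathway a receptor tyrosine kinase, such as an FGF receptor, activates RAS, which activates the kinases RAF, MEK1/2 and ERK in turn. Active ERK switches on target genes, and some of these encode proteins that act back on the pathway, so their RNA is widely used as a readout of ERK output. Dusp4 and Dusp6 encode phosphatases that remove the activating phosphates from ERK (DUSP4 in the nucleus, DUSP6 in the cytoplasm), Sprouty proteins (Spry1, Spry2 and Spry4) and the related Spred proteins (Spred1 and Spred2) restrain the pathway at or above RAF, with Spred proteins recruiting the RAS-inactivating protein neurofibromin, and Il17rd encodes SEF, a transmembrane inhibitor of FGF receptor signalling. In the foetal gonad, FGF9 made in the testis acts through this pathway, and from about E12.5 XY germ cells commit to a male fate, entering mitotic arrest later, while XX germ cells prepare for meiosis.

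Total counts per library ran from 1178953 to 5199153. Libraries were made in 2 pools of 20, with all 0 h groups, both 24 h DMSO groups and 24 h MEKi in pool 1, and 24 h FGFRi and all 72 h groups in pool 2. All 10 germ cell markers, Pou5f1, Ddx4 and Dazl among them, were detected in every group and took 0.192% to 0.781% of the counts of a library, against at most 0.0176% for 16 gonadal somatic markers, 0.0029% for 6 endothelial markers and 0.0468% for 11 blood markers. Insl3, a Leydig cell marker, was at 0 in every group. For 16 libraries of pool 1, a library of pool 2 carried the same sample index. In the XX 24 h DMSO libraries, whose index partners were XY libraries, Y-linked RNA above that of XX 0 h libraries was 2.36% to 9.79% of the partner's. Levels are counts per 1000000 counts (CPM) after library sizes were adjusted with TMM factors, which remove differences in RNA composition, and are given in replicate order, with the mean ± SD over the 4 libraries of a group. Because reads start at the poly(A) tail and were not scaled by length, levels are compared between groups for 1 gene and never between genes. In bulk samples like these, less RNA per cell and fewer cells that express a gene cannot be told apart.

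All 8 genes had their highest group mean in XY germ cells at 0 h. How many of all genes tested had theirs in that group was not counted. The highest group mean was 150-fold the lowest for Dusp4, 41.8-fold for Spry4, 14.3-fold for Dusp6, 11-fold for Spry1, 7.49-fold for Spred2, 7.48-fold for Spry2, 6.79-fold for Il17rd and 2.94-fold for Spred1. The lowest mean of every gene was in a 72 h group, so all these ratios lie across the pools. For Dusp4 the lowest mean (XY 72 h FGFRi, 0.911 CPM) rested on 14 counts. For Spry4 it (XY 72 h MEKi, 0.309 CPM) rested on 4 counts. The ratios of Dusp4 and Spry4, and their places in this ranking, are therefore poorly fixed. The plot of the 8 genes by library shows these levels.

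**Figure D1:**
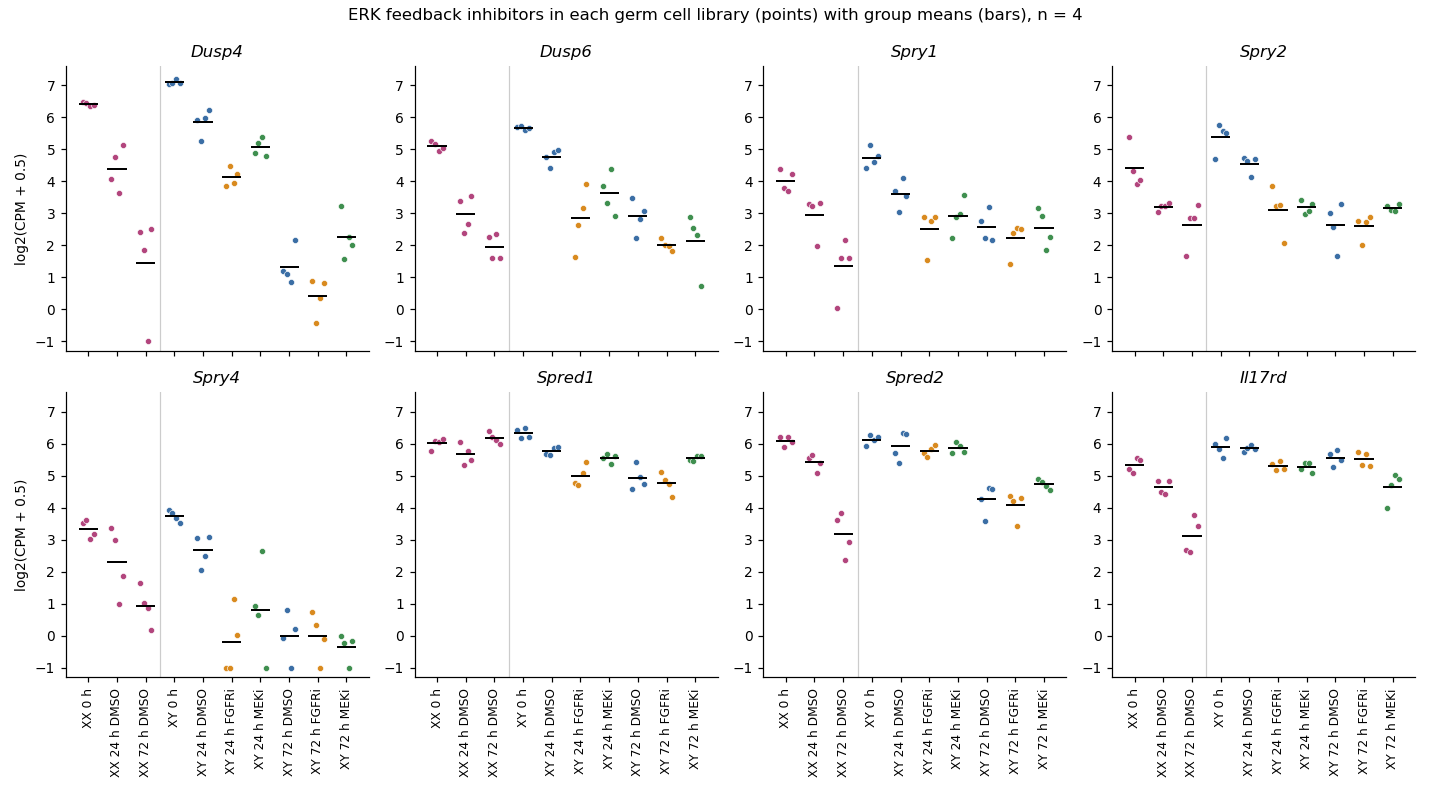
Level of the 8 feedback inhibitor genes, as log2(CPM + 0.5), in each of the 40 libraries (1 panel a gene, 1 point a library, bars at the mean of the 4 log values) over the 10 groups of sex, culture time and treatment. Dusp4 ran from 146 CPM in the highest XY 0 h library to 0 in 1 XX 72 h DMSO library, while the group means of Spred1 stayed between 27.1 and 79.8 CPM.

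The promoters of the phosphatase genes were examined for 2 kinds of short motif that transcription factors downstream of ERK are known to bind. Capicua (CIC) is a repressor that ERK signalling relieves, and the letters TGAATGAA, TGAATGGA, TCAATGAA and TCAATGGA were searched for it. ETS factors such as ETV4 are activators, and CCGGAAGT and CCGGAAAT were searched for these. Both strands were read over 250 bases before to 50 bases after the start of the canonical transcript of 21770 genes in GRCm39, and a stretch of 8 bases can match only 1 of the 6 motifs. In Dusp6, Spry2 and Spry4, and by a few bases in Spred1, this start lies inside the outer limits of the annotated gene, so the searched stretch is not at the end of the gene coordinates given for them. At least 1 CIC-like match lay in 3.652% of all promoters and in those of Dusp4 (1 match), Dusp6 (2 matches) and Spry4 (1 match, not shown), and no CIC-like match lay in those of the other 5 genes. An ETS-like match lay in 5.099% of all promoters and in none of the 8. The sites of the phosphatase genes, whose RNA gave the calls after FGFR inhibition described further on, are shown as 30 bases of the plus strand, which is also the strand of both genes, with the motif (here on the opposite strand) in capitals.
Dusp4, chr8:35274341-35274370: ggggccggcgcTCCATTCAcgagccggggt
Dusp6, chr10:99099058-99099087: gagagaatgtaTCCATTGAgacgctggctg
Dusp6, chr10:99099083-99099112: ggctgtttgtaTCCATTGAggagctgcctc
The Dusp4 match began 90 bases before the first base of the canonical transcript, and those of Dusp6 began 1 and 26 bases after it. A match describes these letters and says nothing of binding in these cells.

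Dusp4 (chr8:35274442-35287048, plus strand of GRCm39) was measured at 131, 134, 146 and 134 CPM in XY and at 88.8, 86.6, 81.2 and 83.0 CPM in XX germ cells at 0 h. After 24 h it was at 60.2, 37.7, 62.1 and 73.8 CPM in XY DMSO and at 16.4, 26.3, 11.8 and 34.5 CPM in XX DMSO libraries. Each XY library lay above every XX library of the same time, and the XX 24 h libraries spread almost 3-fold. The 24 h MEKi libraries held 29.1, 36.4, 40.9 and 27.2 CPM and the 24 h FGFRi libraries 13.8, 21.8, 14.8 and 18.3 CPM. All FGFRi libraries were below all DMSO libraries of XY, whereas 1 MEKi library lay above the lowest DMSO library. At 72 h the level was 1.78, 1.66, 1.32 and 3.95 CPM in XY DMSO, 1.34, 0.25, 0.767 and 1.28 CPM in FGFRi and 8.87, 2.49, 4.33 and 3.5 CPM in MEKi libraries. XX 72 h DMSO libraries held 3.07, 0, 5.14 and 4.78 CPM. These 72 h values rest on 14 to 63 counts a group, and they overlapped between every pair of neighbours in the order of group means. In that order the neighbours from XY 24 h DMSO through MEKi and XX DMSO to FGFRi at 24 h also overlapped, and the neighbours above and below that run did not.

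Dusp6 (chr10:99086564-99103361, plus strand) followed an order of groups much like that of Dusp4 at 0 h and 24 h. XY libraries held 50.9, 52.5, 47.7 and 49.8 CPM and XX libraries 37.5, 35.6, 30.4 and 32.1 CPM at 0 h, with no overlap. At 24 h the DMSO levels were 26.2, 20.7, 29.3 and 30.9 CPM in XY and 9.88, 4.69, 5.90 and 11.1 CPM in XX. The inhibitors gave 13.9, 9.49, 20.5 and 7.06 CPM (MEKi) and 2.58, 5.66, 8.54 and 14.7 CPM (FGFRi). Both inhibited groups lay below the XY DMSO libraries without overlap, in MEKi by a narrow margin (20.5 against 20.7 CPM). By 72 h, XY DMSO libraries were at 10.7, 4.15, 6.61 and 7.90 CPM, FGFRi libraries at 4.20, 3.51, 3.45 and 2.995 CPM, MEKi libraries at 6.90, 5.33, 4.52 and 1.17 CPM and XX DMSO libraries at 2.56, 4.65, 2.57 and 4.25 CPM. All neighbours in the order overlapped except XY 0 h with XX 0 h and XY 24 h DMSO with 24 h MEKi.

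Spry1 (chr3:37693897-37698755, plus strand), the first of the Sprouty genes, was at 20.9, 34.2, 23.8 and 26.8 CPM in XY and 20.1, 13.4, 12.3 and 18.3 CPM in XX germ cells at 0 h. The groups were separated by less than 1 CPM. At 24 h XY DMSO libraries held 12.3, 7.76, 16.7 and 11 CPM, XX DMSO libraries 9.27, 8.91, 3.44 and 9.51 CPM, MEKi libraries 4.16, 6.85, 7.35 and 11.4 CPM and FGFRi libraries 6.89, 2.43, 6.26 and 6.81 CPM. Only FGFRi was clear of the XY DMSO group. At 72 h the levels were 6.22, 4.15, 8.59 and 3.95 CPM in XY DMSO, 2.18, 4.76, 5.37 and 5.13 CPM in FGFRi, 8.37, 7.11, 3.15 and 4.28 CPM in MEKi and 2.56, 3.98, 2.57 and 0.531 CPM in XX DMSO. Past XY 0 h, all neighbours in the order of group means overlapped.

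Spry2 (chr14:106128766-106136446, minus strand) was at 25.3, 53.0, 46.8 and 44.7 CPM in XY and at 41.0, 19.5, 14.6 and 15.8 CPM in XX germ cells at 0 h. Replicate 2 of each sex stood on the other sex's side, so the groups overlapped. After 24 h XY DMSO libraries held 25.7, 24.3, 17.1 and 25.2 CPM and XX DMSO libraries 7.72, 8.91, 8.85 and 9.51 CPM. The levels in MEKi were 10.2, 7.38, 7.87 and 9.24 CPM and in FGFRi 13.8, 8.89, 9.11 and 3.66 CPM. All libraries of both inhibitors and of XX DMSO were thus below every XY DMSO library at 24 h. The 72 h levels, 7.55, 5.39, 2.64 and 9.22 CPM in XY DMSO, 6.21, 3.51, 6.14 and 6.85 CPM in FGFRi, 8.87, 8.0, 7.87 and 9.33 CPM in MEKi and 6.66, 6.64, 8.99 and 2.66 CPM in XX DMSO, all lay below every XY DMSO library of 24 h. The only break between neighbours in the order was between XX 0 h and 24 h FGFRi.

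Spry4 (chr18:38719300-38736025, minus strand) had the fewest counts of the 8, with 4 to 129 counts a group. XY libraries held 14.8, 13.6, 12.4 and 10.9 CPM and XX libraries 11.1, 11.9, 7.70 and 8.57 CPM at 0 h. XY DMSO libraries were at 7.72, 3.62, 5.12 and 8.05 CPM and XX DMSO libraries at 9.88, 7.51, 1.48 and 3.17 CPM at 24 h. Under FGFRi 2 libraries were at 0 and the others at 1.71 and 0.523 CPM, and under MEKi the levels were 1.39, 1.05, 5.77 and 0 CPM. FGFRi did not overlap the XY DMSO group, and MEKi did through its replicate 4. At 72 h no XY library exceeded 1.24 CPM and the XX libraries were at 1.54, 1.33, 0.642 and 2.66 CPM. All neighbours in the order of the 10 group means overlapped.

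Spred1 (chr2:116951524-117018277, plus strand) had the narrowest range of group means. At 0 h it was at 85.3, 71.0, 90.1 and 72.7 CPM in XY and 54.1, 67.8, 66.2 and 69.96 CPM in XX, and at 24 h at 50.4, 49.1, 57.3 and 58.8 CPM in XY DMSO and 65.8, 39.9, 53.6 and 44.8 CPM in XX DMSO. MEKi libraries were at 46.2, 50.6, 40.4 and 48.4 CPM and FGFRi libraries at 26.7, 25.9, 33.0 and 42.4 CPM at 24 h, the latter below all XY DMSO libraries. At 72 h, XX DMSO libraries stood apart at 73.8, 69.0, 62.9 and 82.9 CPM. XY DMSO was at 23.5, 42.7, 30.4 and 26.3 CPM, FGFRi at 34.3, 28.5, 26.1 and 19.7 CPM and MEKi at 44.3, 43.9, 48.6 and 48.2 CPM. The MEKi libraries were all above those of XY DMSO and below those of XX DMSO. Neighbours in the order overlapped except 72 h MEKi with 24 h FGFRi.

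Spred2 (chr11:19874355-19974442, plus strand) was lowest at 72 h in every condition, and in XX already lower at 24 h than at 0 h. XY libraries were at 60.1, 76.2, 68.9 and 73.5 CPM and XX libraries at 73.6, 59.4, 73.1 and 66.1 CPM at 0 h. The 24 h levels were 51.4, 41.9, 79.8 and 78.4 CPM in XY DMSO, 46.6, 49.7, 33.4 and 41.6 CPM in XX DMSO, 52.2, 65.9, 60.9 and 52.7 CPM in MEKi and 51.7, 46.9, 56.4 and 61.2 CPM in FGFRi. No 24 h group was clear of XY DMSO, whose own libraries spread widely. At 72 h XY DMSO was at 18.7, 11.6, 23.8 and 23.7 CPM, FGFRi at 20.0, 18, 10.4 and 19.3 CPM, MEKi at 29.6, 27.2, 25.2 and 22.9 CPM and XX DMSO at 13.8, 4.65, 7.06 and 11.7 CPM. Every 72 h library lay below every 0 h and 24 h library, and this was the only break in the order.

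Il17rd (chr14:26760889-26829243, plus strand) kept its level in XY germ cells and not in XX. XY libraries held 63.1, 56.6, 46.8 and 71.2 CPM at 0 h, 53.0, 57.9, 62.1 and 56.4 CPM after 24 h in DMSO and 50.2, 38.2, 54.8 and 44.1 CPM after 72 h. XX libraries held 36.8, 33.3, 46.2 and 44.5 CPM at 0 h, 27.8, 22.0, 21.1 and 28.1 CPM at 24 h and 5.64, 13.3, 10.3 and 5.84 CPM at 72 h. The sexes did not overlap at any time, though at 0 h they nearly touched. MEKi libraries were at 36.5, 41.1, 41.5 and 33.1 CPM at 24 h and 15.3, 25.6, 32.3 and 29.6 CPM at 72 h, below XY DMSO both times. FGFRi libraries were at 40.5, 35.6, 43.9 and 36.6 CPM at 24 h, below XY DMSO, and at 52.4, 39.6, 51.0 and 38.5 CPM at 72 h, in the range of XY DMSO. Breaks between neighbours lay between 24 h and 72 h MEKi and between 24 h and 72 h XX DMSO.

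Comparisons were tested over all genes with limma. A gene was called where its fold change exceeded 1.5 with a Benjamini-Hochberg false discovery rate (FDR) under 0.05 (limma treat), and the test of the same fit against no change at all is given beside it as a count or, for single genes, as an FDR. Samples of a group are separate libraries, and nothing in the labels says whether they came from separate cultures, so the tests measure the spread between these samples. Fold changes are log2 values of the fit, which weights libraries by quality.

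The sexes were compared at each time, within a pool. XY exceeded XX in all 8 genes at 0 h and at 24 h, with a median log2 difference over the 8 of 0.58 and 0.87 against 0.03 and -0.01 over all genes tested. At 0 h only Spry2 was called, with a mean of 42.5 ± 12 CPM over XY libraries and of 22.7 ± 12.3 CPM over XX libraries (log2 1.27, SE 0.20, FDR 0.0232 by limma treat), where 1.34% of all genes were called higher. This call is fragile, since both libraries that stood on the other sex's side had fit weights below 1 (0.762 and 0.854), it was lost when XX replicate 4 or 5 or XY replicate 3 or 6 was left out (FDR 0.111 to 0.285), and the FDR was 0.168 without weights. Against no change, 5 of the 8 were higher in XY (Dusp4, Dusp6, Spry1, Spry2 and Il17rd), where 13.5% of all genes were. The libraries of 5 of the 8 (Dusp4, Dusp6, Spry1, Spred1 and Il17rd) lay entirely above those of XX, as did those of 11.7% of all genes. Blood markers took 0.0168% of the counts of XY libraries at 0 h (range 0.00498% to 0.0362%, Adgre1 at 0) and 0.00396% of those of XX libraries (0.0033% to 0.00505%, Ptprc at 0), and 0.00849% and 0.0036% at 24 h, and their part in the sex differences was not tested.

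After 24 h in DMSO, 4 of the 8 were called higher in XY, against 9.99% of all genes called and 4.00% called higher, and the libraries of these 4 did not overlap, as in 16.2% of all genes with XY higher. Dusp6 averaged 26.8 ± 4.50 CPM over XY libraries and 7.89 ± 3.08 CPM over XX libraries (log2 1.81, SE 0.30, FDR 0.00147 by limma treat). Dusp4 was at 58.5 ± 15.1 and 22.2 ± 10.1 CPM (log2 1.46, SE 0.21, FDR 0.00138), Il17rd at 57.3 ± 3.78 and 24.8 ± 3.69 CPM (log2 1.16, SE 0.18, FDR 0.0147) and Spry2 at 23.1 ± 4.06 and 8.75 ± 0.745 CPM (log2 1.40, SE 0.31, FDR 0.0499). Without XX replicate 5 the FDR of Il17rd was 0.0635, and that of Spry2 was 0.0643 to 0.143 when any library but XY replicate 4 was left out. Spred2 passed only the test against no change (log2 0.59, FDR 0.00367; 18.9% of all genes were higher by it), with overlapping libraries. Spry1, Spry4 and Spred1 passed neither. Gonadal somatic markers took 0.0064% of counts in XY (0.00434% to 0.0111%) and 0.00276% in XX (0.00226% to 0.0033%), and endothelial markers 0.000366% (0.000336% to 0.000441%, Tie1 at 0) and 0.000887% (0.000508% to 0.00144%), with no overlap in either list, and their part was not tested. In the same comparison, of 6 tested genes for other MAPK phosphatases and Sprouty-related proteins, 4 were called and all were lower in XY, namely Dusp9 (log2 -1.64, FDR 1.37e-07), Dusp8 (-3.78, FDR 0.00168), Dusp16 (-1.18, FDR 0.0119) and Dusp5 (-1.23, FDR 0.0196). Dusp8 averaged only 0.299 ± 0.352 CPM over XY and 4.50 ± 0.962 CPM over XX libraries, so its fold change is poorly fixed. DUSP5 acts on nuclear ERK, DUSP9 on cytoplasmic ERK, and DUSP8 and DUSP16 mainly on the stress kinases JNK and p38.

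At 72 h 41.0% of all genes were called between the sexes (22.8% higher and 18.1% lower in XY), and 2 of the 8 were called. Il17rd was called higher in XY, at 46.8 ± 7.25 CPM against 8.76 ± 3.69 CPM (log2 2.55, SE 0.30, FDR 9.6e-08 by limma treat). Spred1 was called lower in XY, at 30.7 ± 8.47 CPM against 72.2 ± 8.43 CPM (log2 -1.26, SE 0.17, FDR 0.000441). Spry1 (log2 1.45, FDR 0.024) and Spred2 (log2 0.92, FDR 0.012) were higher in XY against no change only, as were 36.2% of all genes, and both had overlapping libraries. Dusp4, Dusp6, Spry2 and Spry4 passed neither test. Their levels at this time were low in both sexes. Endothelial markers took 0.00187% of counts in XY (0.00137% to 0.0029%) and 0.00019% in XX (6.78e-05% to 0.000408%, Tek at 0), and blood markers 0.00519% (0.00318% to 0.00861%, Adgre1 and C1qa at 0) and 0.00236% (0.00205% to 0.00275%, Adgre1, C1qa and Hbb-bh1 at 0), with no overlap in either list, and their part was not tested.

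**Figure D2:**
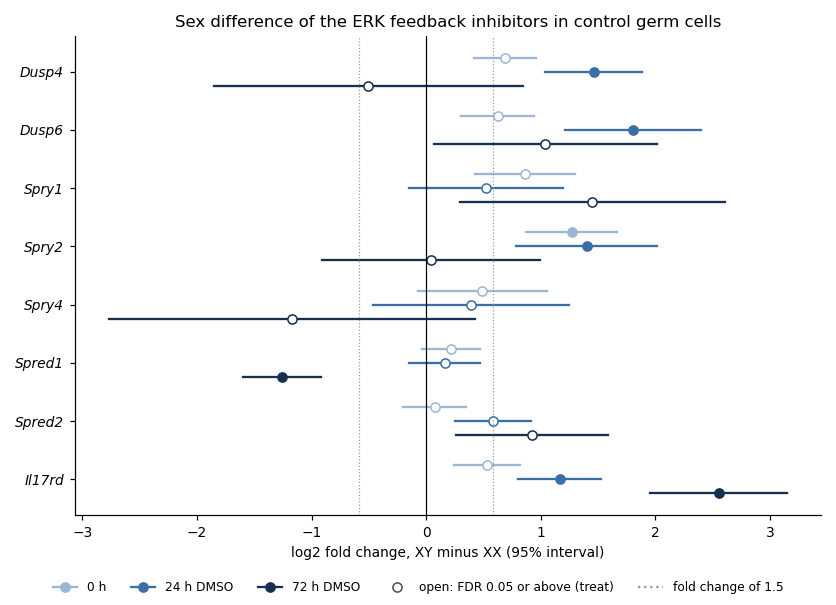
Log2 difference between XY and XX germ cells (points) with 95% intervals for each of the 8 genes in uncultured cells and in DMSO culture of 24 h and 72 h (filled points were called, dotted lines mark a 1.5-fold change). Il17rd stood at 0.53, 1.16 and 2.55, while Spred1 went from 0.22 and 0.16 to -1.26 and Dusp4 from 0.69 and 1.46 to -0.50.

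The change of the sex difference over time was itself tested. From 0 h to 24 h none of the 8 was called, where 0.452% of all genes were, and against no change, where 9.88% of all genes passed, the sex difference of Dusp6 (log2 1.18, SE 0.34, FDR 0.0163) and Dusp4 (log2 0.77, SE 0.25, FDR 0.0379) widened. From 24 h to 72 h the difference of Il17rd (XY less XX) increased by log2 1.39 (SE 0.35, FDR 0.0479 by limma treat) and that of Spred1 dropped by 1.42 on the log2 scale (SE 0.23, FDR 0.0022), in a comparison in which 26.1% of all genes were called. The Il17rd call was lost when any of 9 of the 16 libraries was left out (FDR 0.0533 to 0.166), namely XX 24 h replicates 4 and 9, XY 24 h replicates 2, 3 and 5, XX 72 h replicates 4 and 11 and XY 72 h replicates 2 and 5. Dusp4 (log2 -1.96, FDR 0.0167) and Spry2 (log2 -1.36, FDR 0.0392) passed against no change only, as 51.4% of all genes did, and Dusp4 was called without XX 24 h replicate 9 (FDR 0.0377) or XX 72 h replicate 7 (FDR 0.0116), the library in which it was not detected.

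Most of the 8 had less RNA after culture than before, and culture and the day of development that passed with it cannot be told apart. Over the first 24 h in DMSO, within pool 1, all 8 had a negative fold change in both sexes, with medians of log2 -0.86 in XY and -0.87 in XX against 0.02 and 0.05 over all genes tested. In XX germ cells Dusp6 fell from 33.9 ± 3.23 to 7.89 ± 3.08 CPM (log2 -2.03, SE 0.29, FDR 0.000424 by limma treat) and Dusp4 from 84.9 ± 3.45 to 22.2 ± 10.1 CPM (log2 -1.89, SE 0.20, FDR 6.38e-06). These were the calls among the 8, and 3.23% of all genes were called, 0.911% as lower. In XY germ cells only Dusp4 was called, falling from 136 ± 6.38 to 58.5 ± 15.1 CPM (log2 -1.12, SE 0.15, FDR 0.0168), where 2.94% of all genes were called and 1.33% were lower. Without XY 24 h DMSO replicate 2 or 3 its FDR was 0.0543 or 0.0871. Endothelial markers in XY libraries went from 0.00095% of counts (0.000711% to 0.00128%) to 0.000366% (0.000336% to 0.000441%, Tie1 at 0) without overlap, and their part was not tested. Against no change 7 of the 8 were lower in XX (not Spry4) and 6 in XY (not Spred2 or Il17rd), where 13.7% and 12.8% of all genes were lower.

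From 24 h to 72 h in DMSO the fold change was negative for all 8 genes in XY and for 7 in XX, with medians of log2 -1.90 and -1.65 against 0.02 and -0.10 over all genes. The 24 h and 72 h groups were in different pools, so that here a difference of time cannot be told apart from one of pool. Endothelial markers in XY libraries went from 0.000366% to 0.00187% of counts and gonadal somatic markers in XX libraries from 0.00276% to 0.00992%, while endothelial markers in XX libraries went from 0.000887% to 0.00019% (Tek at 0), all without overlap, and their part was not tested. In XY germ cells 5 of the 8 were called lower, where 27.3% of all genes were called and 11.3% were lower. Dusp4 fell from 58.5 ± 15.1 to 2.18 ± 1.20 CPM (log2 -4.83, SE 0.49, FDR 2.52e-10 by limma treat) and Spry4 from 6.13 ± 2.13 to 0.587 ± 0.517 CPM (log2 -3.19, SE 0.66, FDR 0.000741). Spry2 fell from 23.1 ± 4.06 to 6.20 ± 2.84 CPM (log2 -1.97, SE 0.35, FDR 0.000908), Dusp6 from 26.8 ± 4.50 to 7.33 ± 2.71 CPM (log2 -1.96, SE 0.30, FDR 0.000133) and Spred2 from 62.9 ± 19.1 to 19.4 ± 5.74 CPM (log2 -1.85, SE 0.21, FDR 9.47e-07). The Dusp4 level of XY 72 h DMSO libraries was 0.985% to 2.71% of that in the 0 h library with the same sample index, and the Spry4 level 0% to 8.41%. The part of shared indexes in these levels was not tested. Against no change 7 of the 8 were lower, where 28.7% of all genes were, with Spry1 (log2 -1.06, FDR 0.0121) and Spred1 (log2 -0.87, FDR 1.43e-05) added to the called genes. Spred1 was called (FDR 0.0282 by limma treat) when XY 72 h DMSO replicate 4 was left out. Il17rd passed neither test.

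In XX germ cells 4 of the 8 were called lower at 72 h than at 24 h, where 22.2% of all genes were called and 11.9% were lower. Dusp4 fell from 22.2 ± 10.1 to 3.25 ± 2.34 CPM (log2 -2.86, SE 0.51, FDR 0.000196 by limma treat), Spred2 from 42.8 ± 7.11 to 9.31 ± 4.20 CPM (log2 -2.19, SE 0.31, FDR 2.27e-05), Spry1 from 7.78 ± 2.90 to 2.41 ± 1.42 CPM (log2 -1.99, SE 0.56, FDR 0.035) and Il17rd from 24.8 ± 3.69 to 8.76 ± 3.69 CPM (log2 -1.68, SE 0.31, FDR 0.0034). The Spry1 call was lost without XX 24 h replicate 4, 5 or 9 or XX 72 h replicate 4 or 11 (FDR 0.0586 to 0.238). Dusp4 in XX 72 h DMSO libraries was 0% to 6.32% of that in the 0 h library with the same sample index, and the part of shared indexes was not tested. Spred1 was the exception in direction, at 51.0 ± 11.4 CPM at 24 h and 72.2 ± 8.43 CPM at 72 h (log2 0.55, FDR 0.00227 against no change, FDR 1 against a 1.5-fold change). Dusp6 (log2 -1.19, FDR 0.032) and Spry4 (log2 -1.62, FDR 0.0234) were lower against no change only, and 54.3% of all genes passed that test. The same interval under FGFRi lay within pool 2, and there Dusp4 fell from 17.2 ± 3.66 to 0.911 ± 0.511 CPM (log2 -4.25, SE 0.58, FDR 3.59e-07) and Spred2 from 54.1 ± 6.16 to 16.9 ± 4.44 CPM (log2 -1.62, SE 0.19, FDR 6.9e-06), with 33.5% of all genes called and 14.2% lower. Endothelial markers went from 0.000465% (0.000316% to 0.00076%) to 0.00164% (0.00132% to 0.00186%) without overlap there, and their part was not tested. Dusp6 (log2 -0.95, FDR 0.0422 against no change, by which 31.1% of all genes were lower) was not called, and the other 5 passed neither test.

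Inhibition of FGF receptors for 24 h went with lower RNA of the phosphatase genes in XY germ cells. Dusp4 fell from 58.5 ± 15.1 CPM in DMSO to 17.2 ± 3.66 CPM (log2 -1.85, 95% interval -2.36 to -1.34, FDR 0.00293 by limma treat). Dusp6 fell from 26.8 ± 4.50 to 7.86 ± 5.14 CPM (log2 -1.93, SE 0.34, FDR 0.0497). They were 2 of only 40 genes called among the 15252 (0.262%; lower 0.131%). The largest fold change of the 8 was that of Spry4, from 6.13 ± 2.13 to 0.558 ± 0.806 CPM (log2 -3.25, SE 0.68), which just missed the threshold (FDR 0.0507) and which only 6 genes exceeded in the same direction. The FGFRi group stood on 4 counts of Spry4, so its size is poorly fixed.

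The other 5 genes had smaller differences under FGFRi and were not called. Spry2 was at 8.86 ± 4.14 against 23.1 ± 4.06 CPM (log2 -1.55, FDR 0.485) and Spry1 at 5.60 ± 2.13 against 12 ± 3.71 CPM (log2 -1.10, FDR 1). Spred1 was at 32.0 ± 7.63 against 53.9 ± 4.85 CPM (log2 -0.78, FDR 1), Il17rd at 39.1 ± 3.78 against 57.3 ± 3.78 CPM (log2 -0.53, FDR 1) and Spred2 at 54.1 ± 6.16 against 62.9 ± 19.1 CPM (log2 -0.27, FDR 1). Against no change 6 of the 8 were lower, where 3.59% of all genes were lower, and besides the called genes these were Spry4 (FDR 0.00145), Spry2 (0.00229), Spred1 (0.00399) and Il17rd (0.0446), but not Spry1 (0.0934) or Spred2 (0.35). In 7 of the 8 (all but Spred2) the FGFRi libraries lay entirely below the DMSO libraries, where 6.18% of all genes did. The median of the 8 was log2 -1.33, and that of all genes -0.03.

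The 24 h FGFRi libraries were in pool 2 and the 24 h DMSO libraries in pool 1, so that here a difference of treatment cannot be told apart from one of pool. The calls were also sensitive to single libraries, since the FDR of Dusp4 was 0.051 without DMSO replicate 5, that of Dusp6 was 0.126 to 0.38 without DMSO replicate 4 or 5 or FGFRi replicate 1, 3 or 4, and Spry4 was called without DMSO replicate 3 (FDR 0.0401) or FGFRi replicate 4 (FDR 0.0491).

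Inhibition of MEK1/2 for 24 h, within pool 1, gave negative fold changes for the same 8 genes, and none of them was called by limma treat, where 0.164% of all genes were called and 0.111% were lower. Against no change 5 of the 8 were lower, where 3.65% of all genes were lower. Dusp6 was at 12.7 ± 5.88 CPM against 26.8 ± 4.50 CPM in DMSO (log2 -1.22, SE 0.25, FDR 0.00138 against no change) and Dusp4 at 33.4 ± 6.41 against 58.5 ± 15.1 CPM (log2 -0.94, SE 0.19, FDR 0.00102). Spry2 was at 8.66 ± 1.27 against 23.1 ± 4.06 CPM (log2 -1.38, SE 0.31, FDR 0.00304), Spry4 at 2.05 ± 2.55 against 6.13 ± 2.13 CPM (log2 -2.37, SE 0.58, FDR 0.00818) and Il17rd at 38.1 ± 3.99 against 57.3 ± 3.78 CPM (log2 -0.59, SE 0.16, FDR 0.0165). For Dusp6, Spry2 and Il17rd the MEKi libraries lay entirely below those of DMSO, as did those of 6.21% of all genes. Spry1 (log2 -0.76), Spred1 (-0.25) and Spred2 (-0.21) passed neither test. The median of the 8 was log2 -0.85, against -0.02 over all genes.

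Blood markers took 0.0281% of the counts of 24 h MEKi libraries on average (range 0.0173% to 0.0468%, all 11 detected) against 0.00849% in 24 h DMSO libraries (0.00397% to 0.0126%, 10 detected, Adgre1 at 0) and 0.00674% in 24 h FGFRi libraries (9 detected, Ptprc and Adgre1 at 0). Their part in the differences of the 8 genes was not tested.

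**Figure D3:**
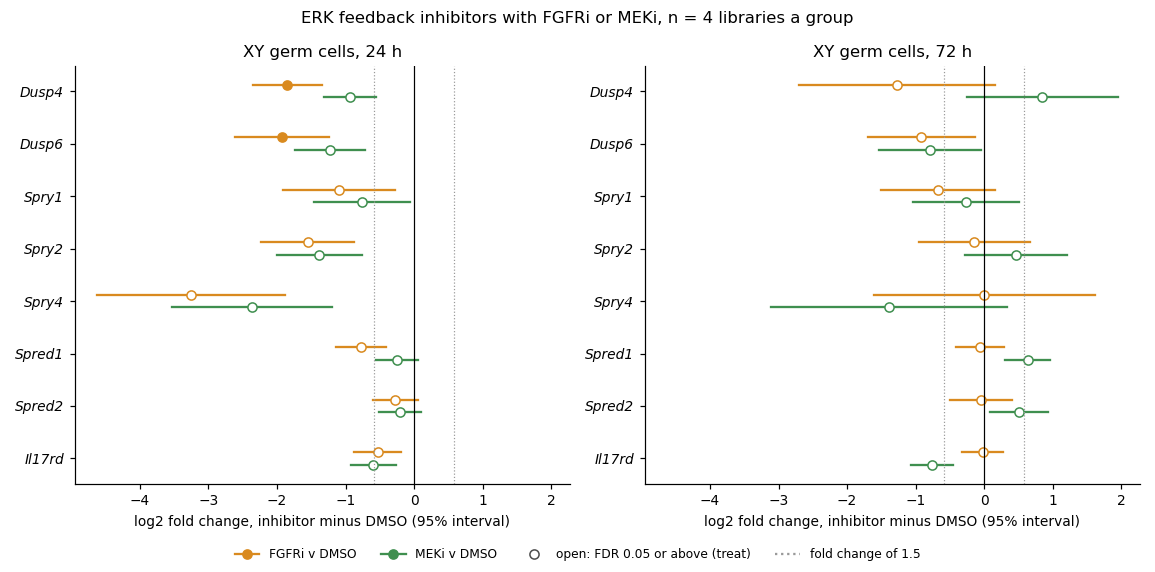
Log2 fold change against DMSO (points) with 95% intervals for each of the 8 genes in XY germ cells after 24 h or 72 h with FGFRi or MEKi (filled points were called, dotted lines mark a 1.5-fold change). At 24 h all 16 points lie below 0, with Spry4 lowest at -3.25 (FGFRi) and -2.37 (MEKi), whereas at 72 h Dusp4 stands at -1.27 under FGFRi and 0.85 under MEKi with intervals that include 0.

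Both 24 h comparisons used the same DMSO libraries, so likeness between them is not independent. FGFRi and MEKi were therefore compared with each other directly. No gene of the 8 was called (0.105% of all genes were). Only Dusp4 passed against no change, at 33.4 ± 6.41 CPM under MEKi and 17.2 ± 3.66 CPM under FGFRi (log2 0.91, SE 0.27, FDR 0.0369, where 4.27% of all genes passed). Its libraries did not overlap, and the share of all genes without overlap is not given here. For Spred1 the interval of the difference was log2 0.15 to 0.89 (FDR 0.095), and for the other 6 it included 0, from the wide ones of Spry4 (-0.75 to 2.52) and Dusp6 (-0.06 to 1.47) to the narrow ones of Spred2 (-0.27 to 0.41) and Il17rd (-0.42 to 0.30). This comparison too lay across the pools.

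**Figure D4:**
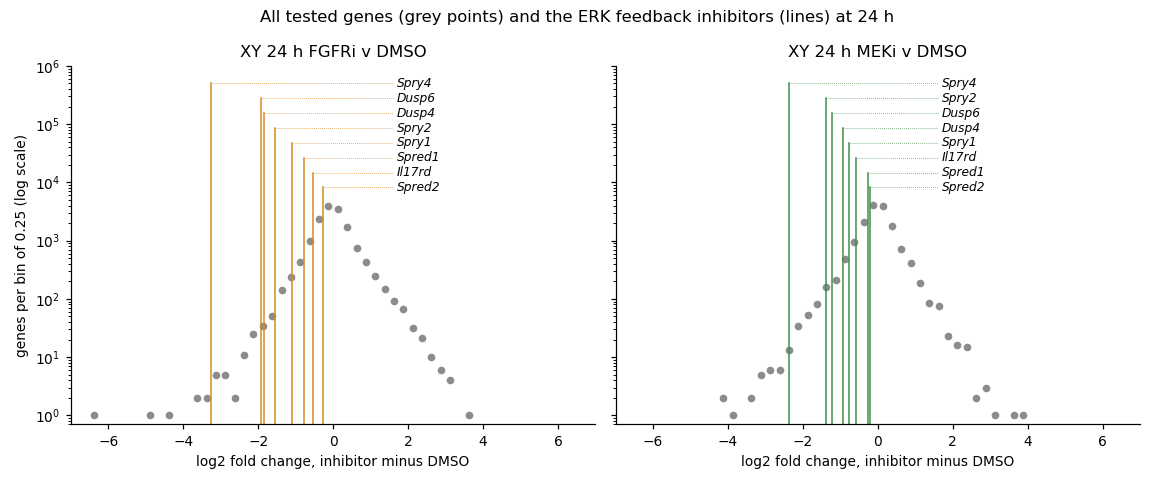
Number of the 15252 genes tested in bins of 0.25 (log scale) by log2 fold change against DMSO after 24 h of FGFRi or MEKi, with the 8 feedback inhibitor genes marked. Under FGFRi the share of genes with a lower value was 0.0393% for Spry4, 0.433% for Dusp6, 0.485% for Dusp4 and 0.806% for Spry2, and under MEKi 0.17%, 2.5%, 4.36% and 1.75%.

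The pathway around the 8 genes was read from lists of its receptors, cascade, other inhibitors and targets. Of 12 tested ERK target genes, Etv1 and Etv4, ETS factors known as ERK targets, were called lower with both inhibitors at 24 h, and no other member was called. For FGFRi a difference of pool cannot be told apart here either. Etv4 was at 27.7 ± 7.13 CPM in DMSO, at 1.72 ± 1.32 CPM in MEKi (log2 -3.96, FDR 1.24e-06 by limma treat) and at 0 in all 4 FGFRi libraries, at least 59.2-fold lower when set against 3 counts over the group (FDR 1.9e-09). Etv1 was at 55.7 ± 18.2 CPM in DMSO, 15.0 ± 6.79 CPM in MEKi (log2 -1.92, FDR 0.000689) and 4.60 ± 2.02 CPM in FGFRi (log2 -3.51, FDR 2.34e-06). Etv5, at 126 ± 31.2 CPM in DMSO, was at 73.3 ± 14.3 CPM in FGFRi and 75.3 ± 9.24 CPM in MEKi (FDR 1 in both), and Egr1, an immediate early gene, at 30.6 ± 10.9, 40.4 ± 2.48 and 67.1 ± 8.04 CPM (FDR 1 and 0.273). Of 13 tested receptors only Ret was called, from 30.5 ± 4.60 CPM to 1.36 ± 1.57 CPM in FGFRi (FDR 2.34e-06) and 2.08 ± 1.51 CPM in MEKi (FDR 3.83e-06). None of the 21 RAS-ERK cascade genes was called with either inhibitor, Map2k1, Map2k2 and Mapk3 included, and none of the 6 other phosphatase and Sprouty-related genes. The 2 called feedback inhibitors thus stood among few called genes of their pathway, with smaller fold changes than Etv1, Etv4 and Ret.

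After 72 h, FGFRi and DMSO libraries of XY germ cells, both of pool 2, were not told apart by any of the 8 genes. None was called or passed against no change (0.00656% and 1.08% of all genes did), and the libraries overlapped for all 8 (they did not for 6.71% of all genes). At p under 0.05 unadjusted, 1 of the 8 passed the test against no change, where 14.8% of all genes did, namely Dusp6, at 3.54 ± 0.496 against 7.33 ± 2.71 CPM (log2 -0.92, 95% interval -1.69 to -0.14, FDR 0.239). Dusp4 was at 0.911 ± 0.511 against 2.18 ± 1.20 CPM (log2 -1.27, interval -2.71 to 0.16), an interval wide enough to hold the difference seen at 24 h.

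MEKi at 72 h gave no call among the 8 by limma treat, where 9.12% of all genes were called. Against no change, where 45.8% of all genes passed, 3 of the 8 did. Il17rd was lower, at 25.7 ± 7.45 against 46.8 ± 7.25 CPM (log2 -0.76, SE 0.16, FDR 6.12e-05). Spred1 was higher, at 46.3 ± 2.49 against 30.7 ± 8.47 CPM (log2 0.63, SE 0.16, FDR 0.00102), and so was Spred2, at 26.2 ± 2.82 against 19.4 ± 5.74 CPM (log2 0.50, SE 0.21, FDR 0.0456). Libraries of the groups did not overlap for Il17rd and Spred1, as for 38.3% of all genes. Dusp4 stood at 4.80 ± 2.82 against 2.18 ± 1.20 CPM (log2 0.85, interval -0.25 to 1.95) and Dusp6 at 4.48 ± 2.42 against 7.33 ± 2.71 CPM (log2 -0.79, interval -1.53 to -0.04, FDR 0.0775), and neither passed. Gonadal somatic markers took 0.011% of counts under MEKi (0.00835% to 0.0176%) and 0.00847% in DMSO (0.0076% to 0.0106%), and endothelial markers 0.000641% (0.000155% to 0.000988%) and 0.00187% (0.00137% to 0.0029%), the latter without overlap, and their part was not tested. In FGFRi libraries of 72 h the endothelial share was 0.00164% (0.00132% to 0.00186%). Around them 2 of 12 ERK targets were called higher and 2 lower, 1 of 13 receptors higher and 3 lower, 1 of 21 cascade genes higher and 1 lower, and 1 of 6 other phosphatase and Sprouty-related genes higher. Called lower were Mapk3 (ERK1), from 130 ± 20.2 to 49.6 ± 8.37 CPM (log2 -1.31, FDR 2.46e-05 by limma treat), Etv4 (log2 -3.58, FDR 0.000402), Etv5 (log2 -1.26, FDR 0.0385) and the receptor genes Ret (log2 -1.78, FDR 0.000706), Pdgfrb (log2 -2.02, FDR 0.00103) and Egfr (log2 -1.99, FDR 0.016). Called higher were the ERK targets Ier2 (log2 1.7, FDR 0.000827) and Ccnd1 (log2 1.49, FDR 0.00878), the receptor gene Fgfr2 (log2 2.00, FDR 0.0213), Map2k1 (MEK1), from 13.4 ± 3.98 to 29.5 ± 6.18 CPM (log2 1.19, FDR 0.0379), and Dusp16 (log2 1.13, FDR 0.0216).

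Set against FGFRi at 72 h, MEKi libraries had more Dusp4 without overlap, though at low levels (4.80 ± 2.82 against 0.911 ± 0.511 CPM, log2 2.12, 95% interval 0.92 to 3.32). The FDR was 0.0514 by limma treat, where 12.7% of all genes were called, and 0.0282 without MEKi replicate 3. Libraries did not overlap for 5 of the 8 (Dusp4, Spry2, Spred1, Spred2 and Il17rd), and the share of all genes without overlap is not given here. Dusp4 in the MEKi libraries was 4.01% to 14.7% of that in the XY 24 h DMSO library with the same sample index, and in the FGFRi libraries 0.727% to 11.4% of that in the XX 24 h DMSO library with the same index, where Dusp4 was lower, and the part of shared indexes in this difference was not tested. Dusp4, Spred1 (log2 0.69, FDR 4.9e-05), Spred2 (log2 0.55, FDR 0.0102) and Il17rd (log2 -0.74, FDR 2.22e-05) differed against no change only, a test that 52.1% of all genes passed. Dusp6, Spry1, Spry2 and Spry4 passed neither test.

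Whether the MEKi effect differed between 72 h and 24 h was tested directly, with each effect taken against its own DMSO group of the same pool. None of the 8 was called, where 1.89% of all genes were. Against no change, where 23.2% of all genes passed, the effect at 72 h was above that at 24 h for Spry2 (log2 1.85, SE 0.48, FDR 0.00343), Dusp4 (log2 1.79, SE 0.58, FDR 0.0196), Spred1 (log2 0.89, SE 0.22, FDR 0.00238) and Spred2 (log2 0.71, SE 0.26, FDR 0.0419). The remaining 4 did not pass, and the 72 h levels of Dusp4 and Spry2 in DMSO were already low.

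Most pairs of the 8 genes were correlated over group means, and correlations within groups were scattered around 0. Over the 10 group means of log2 CPM, 27 of the 28 pairs of members had a positive Pearson correlation, with a median of 0.752. The highest was 0.944, between Dusp6 and Spry1, and the lowest -0.287, between Spred1 and Il17rd. Within groups, from deviations of the 40 libraries from their group means, they spread between -0.544 and 0.526 (median 0.0274). The points share libraries, pools and scaling, and these values describe the data without a test. Pairs of other genes were not set beside them, so they do not show that the 8 were more alike than other genes. Within groups, low counts such as those of Spry4 also limit the correlations.

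Among all genes tested, those most like each member over the 40 libraries (Pearson correlation of log2 CPM) were mostly outside the pathway. Dusp4 was most like Vdac1 (0.952), Ddx39a (0.947) and Phb2 (0.944), and Dusp6 most like Zmym1 (0.882), Txnrd1 (0.868) and Psors1c2 (0.861). For the Sprouty genes these were Tigar (0.843), Gtpbp1 (0.841) and Ctbp2 (0.838) for Spry1, Tex2 (0.87), Rrn3 (0.847) and Zfp532 (0.84) for Spry2, and Etv4 (0.843), Otop1 (0.835) and Fam91a1 (0.809) for Spry4. Spry4 was the only member with a gene of the pathway lists among its 3 closest. Spred1 was most like Nup85 (0.873), Dhx33 (0.871) and Nasp (0.866), Spred2 most like Cenpa (0.955) and Nmral1 (0.954), and Il17rd most like Mdh2 (0.935), Utf1 (0.929) and Ash2l (0.922).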

How the data were processed

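Germ cell RNA was measured with a poly(A)-primed protocol that adds a sample index and a unique molecular identifier (UMI). Per the methods, the authors demultiplexed reads with scPipe, aligned them to GRCm39 with Rsubread, assigned them to GENCODE exons (release not given in the sources used here) using strand, and deposited whole-number counts per gene after UMI deduplication. Those counts were the sum of 2 lanes deduplicated apart, so a molecule read in both lanes counts 2 times, and the UMI is given as 10 bases in the methods and as 8 in the authors' code. The submitters' processing notes list limma and edgeR. Groups were taken from the library names in the labels, and every deposited count column was used.

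Genes were matched by Ensembl identifier to an annotation of GRCm39 (40391 of 42422; the rest held 1.05% of counts). Genes were filtered with filterByExpr of edgeR 4.0.16 (minimum count 10, minimum total 15; 99.2% of counts kept), scaled by TMM, and tested in limma 3.58.1 (R 4.3.3) with voomWithQualityWeights, in 1 fit of the 10 group means to the 40 libraries, followed by two-sided treat tests (fold change 1.5, FDR under 0.05). This design was taken from the methods of the study, whose fit also held somatic libraries, not used here. Levels used an offset of 0.5 CPM on the log2 scale for correlations and the plot by library, and intervals are at the 0.95 level. A group with no counts was set against a floor of 3 counts over its libraries, which covers counting error only. Alternatives were other scaling (DESeq2 size factors), no filter, edgeR quasi-likelihood and DESeq2 1.42.0 tests, no weights, only the groups compared, a replicate block, removal of counts tied to shared indexes, and leaving out each library. The fit was tested on simulated data. Promoter sequences were read from GRCm39. Protein sequences were not used here.

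The 8 genes and the gene lists were chosen with earlier results of these data known. The rule for other named genes was up to 4 called genes with the smallest FDR in each pathway list, 12 pathway genes in any case, the 3 genes most like each member, and cell type markers, with the levels of Dusp9 under the inhibitors added outside it. Values of 2 of these genes are not reported here.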

Additional observations from a re-analysis of the deposited data

Results flagged for a closer look

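In 3 of the 80 sets of 4 libraries (8 genes in 10 groups) 1 library stood far from the other 3, and chance gives about 1 in 20 sets. Spry1 in XX 24 h DMSO replicate 6 was at 3.44 CPM, with the others at 8.91 to 9.51 CPM. Spry1 in XY 24 h FGFRi replicate 3 was at 2.43 CPM, with the others at 6.26 to 6.89 CPM. Spry2 in XY 24 h DMSO replicate 4 was at 17.1 CPM, with the others at 24.3 to 25.7 CPM.

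The difference between XY and XX germ cells changed from 24 h to 72 h in 2 of the 8 genes by limma treat, with a log2 change of -1.42 for Spred1 and 1.39 for Il17rd. Of all genes, 26.1% were called in this comparison. The Il17rd call was lost without any of 9 of the 16 libraries (FDR 0.0533 to 0.166), each named with the sex comparison. In both, the XX level moved with time by more than, or opposite to, the XY level.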

How the results depend on the processing

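Counts of the 8 genes called depended on the setting, and the cause was not tested. The alternatives besides the test against no change and leaving out a library gave 738 values. They covered other tests, scaling, filter, weights, only the groups compared, a replicate block and removal of shared-index counts. Of these values 679 kept their side of the threshold, 37 lost it, 22 gained it and 0 changed sign. Tested against no change, the counts were 5 of 8 (1 in the report's test) for XY against XX at 0 h, 4 (2) at 72 h, 5 (4) at 24 h, 6 (1) for XY and 7 (2) for XX from 0 h to 24 h, 7 (5) for XY, 7 (4) for XX and 3 (2) for XY under FGFRi from 24 h to 72 h, 6 (2) for 24 h FGFRi, 5 (0) for 24 h MEKi, 3 (0) for 72 h MEKi, 1 (0) and 4 (0) for MEKi against FGFRi at 24 h and 72 h, 4 (0) for the change of the MEKi effect, and 2 (0) and 4 (2) for the change of the sex difference to 24 h and to 72 h. The call at 0 h (Spry2) fell to 0 with no filter, edgeR, DESeq2, no weights or only the groups compared, and that of Dusp4 in XY from 0 h to 24 h to 0 with no filter or DESeq2. Spry2 was lost between the sexes at 24 h with DESeq2 size factors (FDR 0.0598), no filter (0.13), DESeq2 (0.0786), a replicate block (0.139) and, just past the threshold, no weights. Spry1 in XX from 24 h to 72 h was lost with DESeq2 size factors (FDR 0.0528), DESeq2 (0.104) and no weights (0.0659). Calls for 24 h FGFRi fell to 1 (Dusp4) with DESeq2 size factors, DESeq2, no weights or only the groups compared. Calls gained were Spry4 for 24 h FGFRi with no filter (FDR 0.00691) and edgeR (0.0451), with edgeR also Spry2 in XX from 0 h to 24 h (0.0322), Spry4 in XX from 24 h to 72 h (0.029) and Dusp6 under FGFRi over the same time (0.036), and Dusp4 for the change of the sex difference to 72 h with edgeR (0.0171) and DESeq2 (0.0359), where DESeq2 lost Il17rd (0.0973). Dusp4 gave 1 call for MEKi against FGFRi at 72 h with edgeR, DESeq2 or only the groups compared, Spry2 1 for the change of the MEKi effect with edgeR, and the change of the sex difference to 72 h kept 1 (Spred1) with no filter or no weights. Counts tied to shared indexes were also taken out of the 16 pool 1 libraries, at rates that were about as high in both directions and so may be too large. There were then 4 calls each for 24 h FGFRi and MEKi (Dusp4, Dusp6, Spry2 and Spry4), while calls over all genes went from 40 to 626 and from 25 to 672. In these comparisons only the DMSO libraries were altered. In XY from 0 h to 24 h there were 0 calls (all genes from 449 to 683), and Il17rd was lost in XX from 24 h to 72 h (FDR 0.0584). MEKi against FGFRi at 72 h gave 1 (all genes from 1936 to 1839), but neither group was altered, so this does not test carry-over there. The change of the MEKi effect gave 2 (72 h libraries not altered, all genes from 288 to 922). That of the sex difference to 72 h gave 1 (all genes from 3979 to 3053). At the rate of Y-linked RNA, an alternative chosen after seeing the data, that last count was also 1, Spry2 was lost between the sexes at 24 h (FDR 0.067) and Spry4 was gained for 24 h FGFRi (FDR 0.0454). Same-numbered libraries shared only a number (correlations of their deviations of -0.11 to 0.14 over 34 pairs, and in 0 of 7 comparisons did every library correlate best with its own number). With a replicate block the calls were 0 at 0 h and 1 at 72 h between the sexes, 0 in XY from 0 h to 24 h, 0 in XX from 24 h to 72 h, 1 for 24 h FGFRi, 1 for MEKi against FGFRi at 72 h and 0 for the change of the sex difference to 72 h. Calls over all genes went, in the same order, from 457 to 322, 6250 to 3888, 449 to 420, 3393 to 1127, 40 to 37, 1936 to 1037 and 3979 to 2102. Leaving out 1 library gave 0 to 1 calls at 0 h, 2 to 4 at 24 h and 2 at 72 h between the sexes, 0 to 1 in XY and 2 in XX from 0 h to 24 h, 5 to 6 in XY and 3 to 4 in XX from 24 h to 72 h, 0 to 3 for 24 h FGFRi, 0 to 1 for MEKi against FGFRi at 72 h and 1 to 3 for the change of the sex difference to 72 h. Of 736 values 1 changed sign, Spred2 for 24 h MEKi, which ranged from log2 -0.35 to 0.060 (without XY 24 h DMSO replicate 5). Depth limits Spry4 most, since 4 to 16 counts a group stood behind it in 6 of the 10 groups.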
